A study of Homo sapiens with 16 samples.

Results

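The 10 genes described here belong to the transforming growth factor beta (TGF-beta) superfamily pathway and were measured in OVCAR3, an established human ovarian carcinoma cell line, during exposure to the active vitamin D hormone, 1,25(OH)2D3. They are the TGF-beta ligands TGFB1 and TGFB2, the binding protein LTBP1, the activin subunit genes INHBA and INHBB, the secreted antagonists CHRDL1 and FST, the receptor TGFBR2, and the signal transducers SMAD3 and SMAD7. Members were found as every probe set that the platform annotation ties to exactly 1 of these symbols, which gave 21 of 22283 probe sets on the U133A array type and 18 of 12626 on the U95 type. They make up 10 of the 11963 genes with a probe set of their own on U133A. The set is named for its antagonists, but only FST and CHRDL1 are secreted inhibitors of ligands and only SMAD7 is an inhibitor inside the cell. The genes were chosen with results of these arrays known, and the U133A differences from vehicle are counted among the values they were chosen by, so each difference from vehicle on U133A is a description, given with its standard error (SE) and no p-value.

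The U133A arrays held 3 biological replicates each of ethanol vehicle (0 h) and of cells given 1,25(OH)2D3 at 0.1 pM for 8, 24 and 72 h, 12 arrays in all. The hormone was added at staggered times so that cells were harvested together, and ethanol exposure was equal in all groups. The U95 arrays held 1 sample for each of these 4 conditions. The dose is given as the labels state it, and all cells came from a single line grown alone, so the groups stand for that line only. The replicates came from 3 independent experiments.

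Signals of the TGF-beta superfamily bind paired type I and type II receptors on the cell surface. TGF-beta and activin receptors pass the signal to SMAD2 and SMAD3, whereas receptors for bone morphogenetic proteins (BMPs) pass it to SMAD1, SMAD5 and SMAD9. TGF-beta leaves the cell in a latent complex that LTBP1 tethers to the extracellular matrix. Follistatin (FST) binds activins, and chordin-like 1 (CHRDL1) binds BMPs, before they reach a receptor. In the ovary, activin, inhibin and follistatin are known for their part in follicle growth and in the control of pituitary hormone release.

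The upstream sequences of the 4 members with the largest differences at 72 h on the probe sets that stand for them are shown, 3 of them genes with higher signals than vehicle and LTBP1 with lower. Each runs 5′ to 3′ over the 250 bases before a RefSeq transcription start on GRCh38.p14. CHRDL1 is at chrX:110795818-110796067 on the minus strand. FST is at chr5:53480379-53480628, INHBB at chr2:120345886-120346135, and the most upstream LTBP1 start and a start inside the gene at chr2:32946703-32946952 and chr2:33134119-33134368, all on the plus strand. Capitals mark half-sites bound by the vitamin D receptor (VDR) on either strand, in the spelling AGGTCA, in the variant spelling GGTTCA, which is common, or in the spelling GGGTCA with another start. They also mark, on either strand, the SMAD binding element CAGAC.
CHRDL1: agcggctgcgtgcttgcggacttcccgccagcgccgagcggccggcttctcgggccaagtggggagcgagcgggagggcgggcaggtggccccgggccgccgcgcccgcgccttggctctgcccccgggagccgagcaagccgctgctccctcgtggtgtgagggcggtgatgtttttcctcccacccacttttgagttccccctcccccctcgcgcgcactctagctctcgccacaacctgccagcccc
FST: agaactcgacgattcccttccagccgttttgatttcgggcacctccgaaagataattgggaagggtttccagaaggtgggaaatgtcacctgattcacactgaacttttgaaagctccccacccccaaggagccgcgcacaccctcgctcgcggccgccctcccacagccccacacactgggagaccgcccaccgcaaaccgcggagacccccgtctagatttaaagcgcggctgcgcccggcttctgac
INHBB: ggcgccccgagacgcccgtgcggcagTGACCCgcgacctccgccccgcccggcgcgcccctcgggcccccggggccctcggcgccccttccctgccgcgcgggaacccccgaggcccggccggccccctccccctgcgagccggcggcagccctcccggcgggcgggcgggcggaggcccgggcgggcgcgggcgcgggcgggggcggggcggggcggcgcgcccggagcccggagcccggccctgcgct
LTBP1 upstream start: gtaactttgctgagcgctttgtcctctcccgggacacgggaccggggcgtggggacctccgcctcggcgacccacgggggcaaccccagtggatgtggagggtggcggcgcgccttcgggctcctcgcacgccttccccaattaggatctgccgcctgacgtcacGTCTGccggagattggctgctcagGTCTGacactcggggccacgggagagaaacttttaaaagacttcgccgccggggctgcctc
LTBP1 inner start: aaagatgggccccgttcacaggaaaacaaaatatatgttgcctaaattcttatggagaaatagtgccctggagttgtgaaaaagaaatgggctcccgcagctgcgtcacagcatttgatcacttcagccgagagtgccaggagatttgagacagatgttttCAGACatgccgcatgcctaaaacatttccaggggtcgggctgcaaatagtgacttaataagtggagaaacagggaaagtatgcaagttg

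The INHBB window had 1 VDR half-site, and CHRDL1, FST and both LTBP1 windows printed had 0. CAGAC occurred in both LTBP1 windows and in none of the CHRDL1, FST and INHBB windows. Over all 10 members RefSeq gave 19 such windows, of which 5 held a half-site, against 27.7% of 34943 windows in the RefSeq table. A pair of half-sites in the same direction with 3 bases between them was in 0 of the 19 windows and in 0.0429% of all windows. CAGAC was in 8 of the 19, against 38.0% of all. The INHBB window was 89.6% G or C with 46 CG dinucleotides, CHRDL1 was 73.2% with 27 and FST 60.0% with 20, where the median window had 58.0% and 11. These matches describe letters in the windows and no binding was measured.

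The U133A arrays had median signals between 167.7 and 195.5, with the lowest in 72 h replicate 1, and pairwise correlations on the log2 scale of 0.958 to 0.976. Signals are MAS5 intensities on a linear scale and cannot be compared between probe sets. Of the 15 OVCAR3 markers listed (among them MUC16, PAX8 and WT1), all 15 lay above the filter on low values, with a summed signal of 65484 to 71146 at 72 h and 64173 to 72342 in vehicle. Within that sum, WT1, CDH1 and KRT7 were higher and KRT18 lower at 72 h than in vehicle by limma, and 11 did not pass. WT1 averaged 4353 ± 198 at 72 h and 2095 ± 156 in vehicle (SD, n = 3 each), a log2 difference of 1.05 (adjusted p = 6.09e-07). Of fibroblast markers 3 of 10 lay above it, with sums of 1366 to 1420.1 at 72 h and 1349 to 1519.6 in vehicle, as did 1 of 8 leukocyte markers and 0 of 7 endothelial markers. No marker was at 0. CYP24A1, the enzyme that breaks down 1,25(OH)2D3, averaged 129 ± 103 in vehicle and 6185 ± 380 at 8 h, 7329.8 ± 1883 at 24 h and 7429.8 ± 1407 at 72 h (SD, n = 3 each), and GADD45A averaged 468 ± 89.8, 1332 ± 107, 1800.0 ± 264 and 1943 ± 296 over the same order.

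Log2 differences were computed on signals with 15.833 added, and a gene is called where its adjusted p from a limma fit over 7178 genes lay under 0.05. Of the 10 members, 9 passed the filter on low values and INHBA did not. At 8 h 1 of 9 was called, CHRDL1, where 0.766% of all genes were. At 24 h 3 of 9 were called, with CHRDL1 and INHBB higher than in vehicle and LTBP1 lower, where 4.07% of all genes were. At 72 h 6 of 9 were called, CHRDL1, FST, INHBB and TGFB1 higher and LTBP1 and TGFBR2 lower, where 6.84% of all genes were. Nothing is read from these counts, since the vehicle contrasts were in view when the genes were chosen.

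CHRDL1 (chrX:110673856-110795817, GRCh38.p14), a secreted protein that binds BMPs, had the largest difference of the 10 at 72 h on the probe sets that stand for each gene. The second LTBP1 probe set differed more, by -2.42, and on U95 the 72 h ratio of LTBP1 (-2.29) was further from 0 than that of CHRDL1 (2.08). The CHRDL1 signals were 454, 443 and 496 in vehicle, 706, 726 and 645 at 8 h, 1503, 1291 and 1441 at 24 h, and 1828, 1822 and 1816 at 72 h. Each group lay wholly above the one before it, and the 72 h arrays were close together. The mean was 1822 ± 6.0 at 72 h and 464 ± 27.9 in vehicle (SD, n = 3 each). In bulk samples, a change in the share of cells with a transcript and a change in its amount per cell cannot be told apart. The log2 difference from vehicle was 0.56 at 8 h, 1.57 at 24 h and 1.94 at 72 h (SE 0.098), the last a 3.83-fold ratio on this scale and the 15th highest among 7178 genes. The 8 h call was lost without vehicle replicate 2 and without 8 h replicate 2, where the difference was still 0.53 in each case.

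FST (chr5:53480629-53487134), follistatin, is best known for binding activins. Its signals were 1180.3, 1074 and 908 in vehicle, 1115, 1195 and 999.9 at 8 h, 1487, 1548 and 1375 at 24 h, and 3035, 2033 and 2129.6 at 72 h. The 8 h arrays overlapped vehicle, while the 24 h arrays lay above both and the 72 h arrays above all others. The mean was 2399 ± 553 at 72 h and 1054 ± 137 in vehicle (SD, n = 3 each), with log2 differences of 0.07, 0.48 and 1.16 (SE 0.14) at 8, 24 and 72 h. Replicate 1 was the highest of the 72 h arrays, and without it the 72 h difference was 0.98. A second FST probe set had 264, 266 and 337 in vehicle, 251, 226 and 207 at 8 h, 371, 331 and 264 at 24 h, and 509, 498 and 436 at 72 h. Its 8 h arrays lay below vehicle, by a log2 difference of -0.32 (SE 0.16), its 24 h arrays overlapped vehicle, and its 72 h arrays lay above all others, 0.71 above vehicle.

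INHBB (chr2:120346136-120351803) encodes the beta B subunit of activin B and inhibin B. Its signals were 1476, 1399 and 1298 in vehicle, 2215, 1958 and 2136 at 8 h, 2769, 2965 and 2548 at 24 h, and 3909, 2251 and 2438 at 72 h. All 9 treated arrays lay above the 3 vehicle arrays, and the 24 and 72 h arrays overlapped. The log2 difference from vehicle was 0.59 at 8 h, 0.98 at 24 h and 0.99 at 72 h (SE 0.15), from means of 2866 ± 908 at 72 h and 1391 ± 89.1 in vehicle (SD, n = 3 each). As for FST, 72 h replicate 1 was the highest array, and the 72 h difference without it was 0.75. That array also had the lowest median signal of the 12.

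INHBA (chr7:41685114-41705406), the beta A subunit of activin A, had low signals, where the 10th percentile of an array's signals was 13.4 to 17.7. They were 14.3, 43.1 and 20.5 in vehicle, 30.4, 43.6 and 8.57 at 8 h, 23.5, 24.7 and 25.0 at 24 h, and 2.74, 2.99 and 88.3 at 72 h. The groups overlapped throughout, and 72 h replicate 3 stood above the other 11 arrays. The second INHBA probe set lay between 5.39 and 21.7 on all 12 arrays. No order of the groups can be read at this level.

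**Figure D1:**
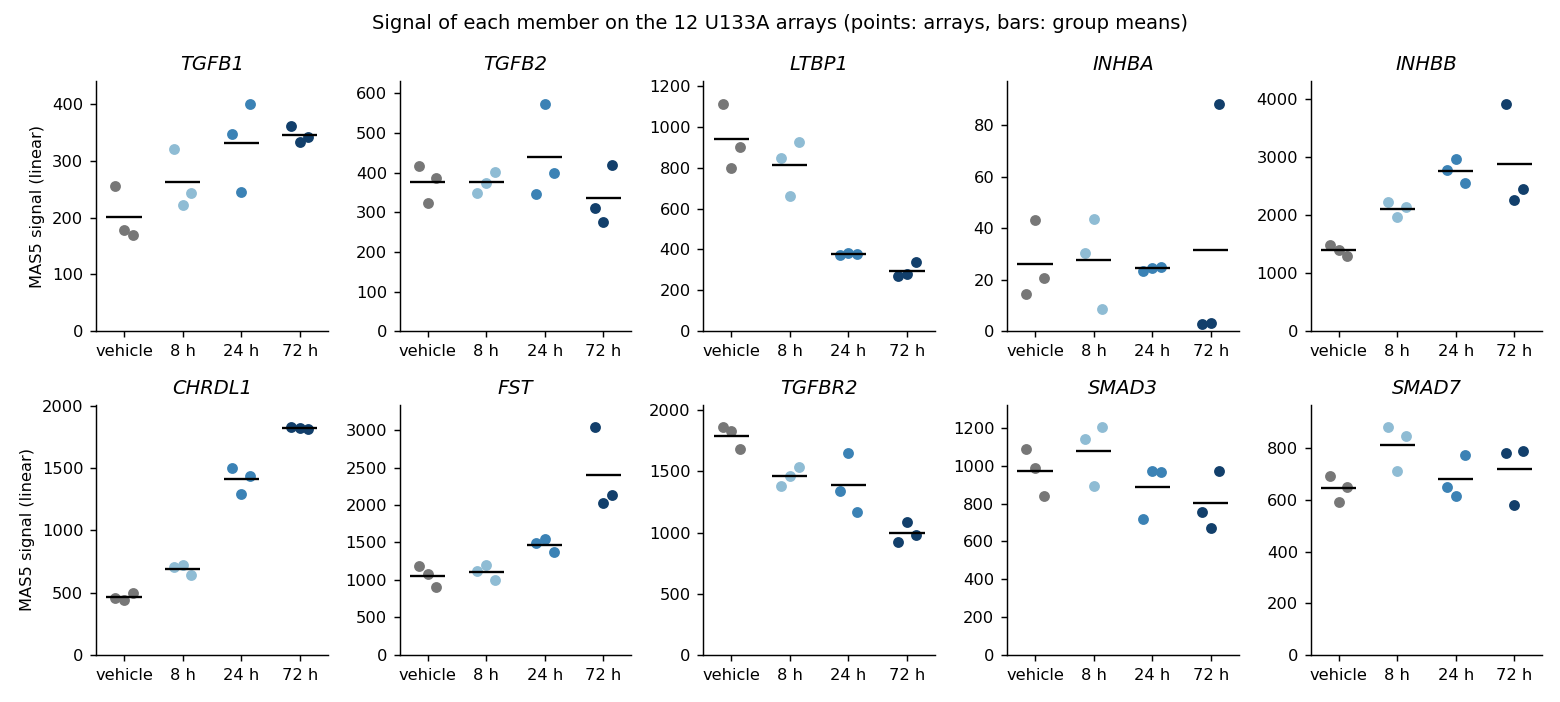
MAS5 signal (linear axis from 0) of the probe set that stands for each of the 10 genes, by group, with points for the 12 U133A arrays in order of replicate number and bars for group means. CHRDL1 is higher at each later time and averages 1822 at 72 h, LTBP1 stands at 296 at 72 h against 939 in vehicle, and INHBA stays under 90 on all arrays.

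TGFB1 (chr19:41330323-41353922), a TGF-beta ligand gene, had signals of 257, 179 and 169.7 in vehicle, 321, 223 and 244 at 8 h, 347, 246 and 401 at 24 h, and 362, 334 and 342 at 72 h. The 72 h arrays lay above vehicle, while 8 and 24 h overlapped it. The mean was 346 ± 14.3 at 72 h and 202 ± 47.7 in vehicle (SD, n = 3 each), and the log2 difference was 0.36, 0.67 and 0.75 (SE 0.20) at 8, 24 and 72 h. The 72 h call was lost without vehicle replicate 2 or 3, without any 1 of the 72 h arrays, and with no filter on low values. The other TGFB1 probe set lay between 6.12 and 24.2 on all arrays, near background.

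TGFB2 (chr1:218345336-218444619), a second TGF-beta ligand gene, showed no difference beyond its spread on the probe set that stands for it. Its signals were 416, 323 and 386 in vehicle, 349, 375 and 401 at 8 h, 347, 574 and 399 at 24 h, and 311, 276 and 419 at 72 h. The groups overlapped, and the log2 difference at 72 h was -0.17 (SE 0.19, 95% interval -0.56 to 0.23). The 4 TGFB2 probe sets did not move alike, with 72 h differences of -0.68, -0.17, -0.07 and 0.07. The probe set with the lowest of these had 114, 147 and 58.0 at 72 h and 155, 167 and 189 in vehicle, with no overlap.

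LTBP1 (chr2:32946953-33399509), which anchors latent TGF-beta in the matrix, lay furthest below vehicle of the 10 genes. Its signals were 1113, 801 and 903 in vehicle, 848, 661 and 924 at 8 h, 374, 384 and 379 at 24 h, and 269, 279 and 341 at 72 h. Vehicle and 8 h overlapped, and every 24 and 72 h array lay below both. The mean was 296 ± 38.8 at 72 h and 939 ± 159 in vehicle (SD, n = 3 each). The log2 difference was -0.21, -1.26 and -1.61 (SE 0.15) at 8, 24 and 72 h, the 11th most negative among 7178 genes at 72 h. The second LTBP1 probe set had 109.9, 68.1 and 52.4 at 72 h and 531, 396 and 471 in vehicle, and its difference was larger, at -2.42 (SE 0.26).

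TGFBR2 (chr3:30606356-30694142), the type II receptor that binds TGF-beta first, was lower than vehicle on all 9 treated arrays. Its signals were 1859.9, 1830.4 and 1686 in vehicle, 1379, 1465 and 1538 at 8 h, 1338, 1654 and 1165 at 24 h, and 921, 1084 and 983 at 72 h. The 8 and 24 h arrays overlapped each other, and the 72 h arrays lay below all others. The mean was 996 ± 81.8 at 72 h and 1792 ± 93.2 in vehicle (SD, n = 3 each), with log2 differences of -0.29, -0.38 and -0.84 (SE 0.12) at 8, 24 and 72 h. A dimmer TGFBR2 probe set differed by -0.08 at 24 h and -1.38 at 72 h (SE 0.36), with 51.0, 20.6 and 45.8 at 72 h and 144, 145 and 87.8 in vehicle.

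SMAD3 (chr15:67065602-67195169) carries TGF-beta and activin signals to the nucleus. Its signals were 1087, 989 and 841 in vehicle, 1139, 892 and 1202 at 8 h, 720.1, 971 and 964 at 24 h, and 758, 671 and 972 at 72 h. All groups overlapped, and the log2 difference at 72 h was -0.28 (SE 0.16, 95% interval -0.63 to 0.06). The other 3 SMAD3 probe sets differed by -0.31, -0.28 and -0.03 at 72 h. That at -0.28 had 284, 278 and 298 at 72 h and 416, 337 and 312 in vehicle, with no overlap.

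SMAD7 (chr18:48919853-48950965) blocks the receptors and is itself a target of TGF-beta signalling. Its signals were 693, 592 and 649 in vehicle, 881, 714 and 846 at 8 h, 652, 616 and 775 at 24 h, and 783, 582 and 791 at 72 h. The 8 h arrays lay above vehicle, by 0.33 on the log2 scale (SE 0.14), and 24 and 72 h overlapped it. The 8 h difference was not called, and that at 72 h was 0.14 (SE 0.14, 95% interval -0.15 to 0.44).

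**Figure D2:**
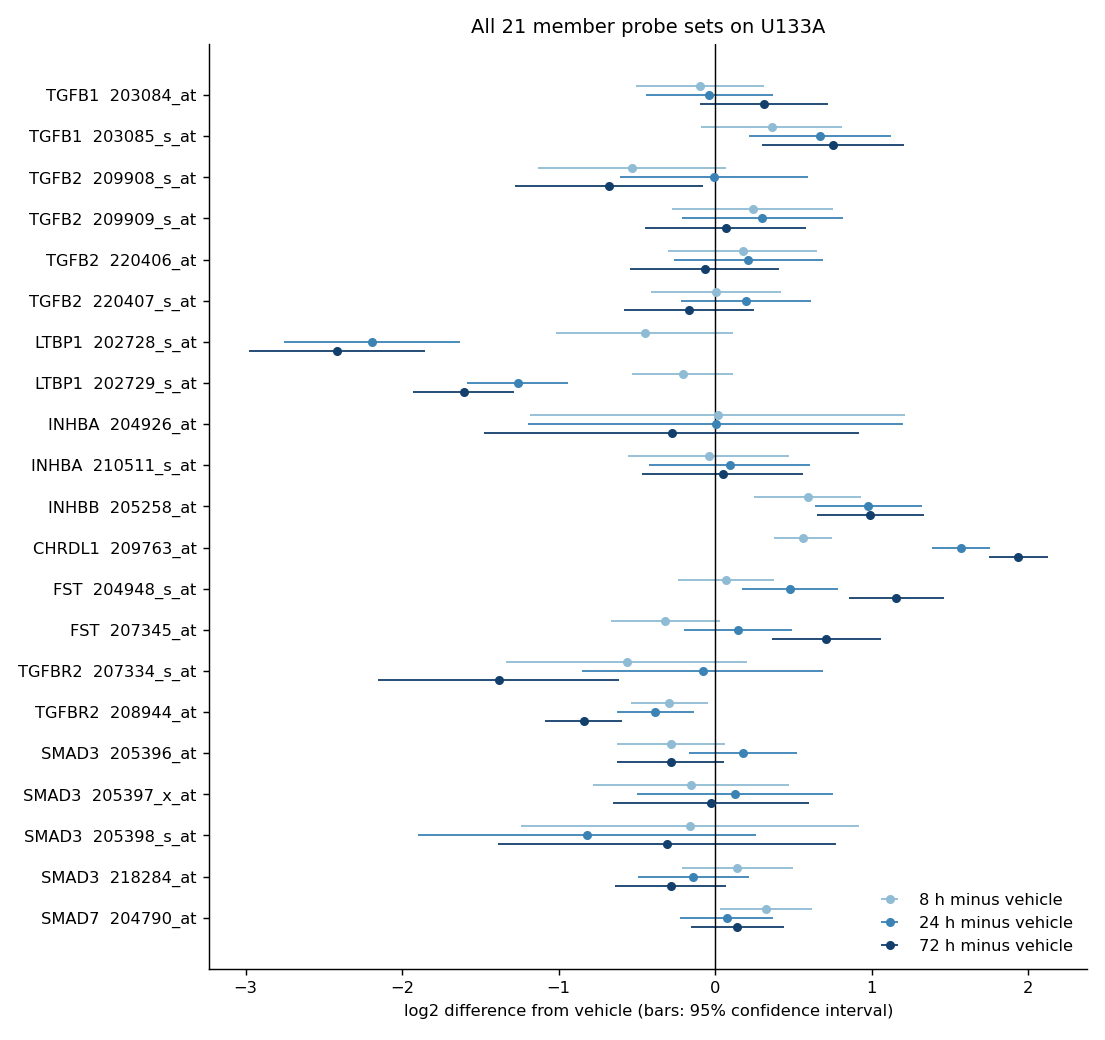
Log2 difference from vehicle (horizontal axis) for each of the 21 U133A probe sets of the 10 genes at 8, 24 and 72 h, with 95% confidence intervals from a fit of all single-gene probe sets with no filter. Both LTBP1 probe sets lie at -1.26 or below at 24 and 72 h, CHRDL1 is at 1.94 at 72 h, and the intervals of INHBA span 0.

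Differences between the times of exposure do not use the vehicle arrays, but they come from the same treated arrays and are not independent of how the genes were chosen. From 8 to 24 h, 2 of 9 members were called by limma, where 0.641% of all genes were. CHRDL1 was higher at 24 h than at 8 h by 1.01 on the log2 scale (SE 0.098, adjusted p = 1.0e-04), and LTBP1 was lower by a log2 difference of -1.05 (SE 0.15, adjusted p = 0.0028). In both genes all 3 arrays at 24 h lay beyond all 3 at 8 h, and the share of all genes without overlap was not counted. FST was 0.41 higher and INHBB 0.39 higher on the log2 scale, neither past the test (adjusted p = 0.366 and 0.50).

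From 24 to 72 h, 0 of 9 members were called by limma, where 0.153% of all genes were, and 4 of the 9 had an unadjusted p under 0.05, as did 11.7% of all genes. The largest difference was that of FST, 0.68 on the log2 scale (SE 0.14), with all 72 h arrays above all 24 h arrays. Its adjusted p was 0.101 in the fit without a block and 0.0273 with the replicate number as a block, which called 1 of the 9. The share of all genes called with the block is not given. CHRDL1 at 0.37, LTBP1 at -0.35 and TGFBR2 at -0.46 did not pass (adjusted p = 0.189, 0.381 and 0.174). INHBB differed by 0.01 (95% interval -0.32 to 0.34).

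From 8 to 72 h, 4 of 9 members were called by limma, where 2.52% of all genes were. CHRDL1 was 1.38 higher (adjusted p = 1.35e-06) and FST 1.09 higher (adjusted p = 3.76e-04), while LTBP1 differed by -1.40 (adjusted p = 5.92e-05) and TGFBR2 by -0.55 (adjusted p = 0.0202), all on the log2 scale. The 72 h and 8 h arrays did not overlap in any of the 4, and the share of all genes without overlap was not counted. The TGFBR2 call was lost without 8 h replicate 2 or 3, without 72 h replicate 1 or 3, and with the mean of both probe sets, with adjusted p up to 0.103. INHBB was 0.40 higher at 72 h than at 8 h and did not pass (adjusted p = 0.224).

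On the 4 U95 arrays, with 1 sample a condition, no test was possible, and log2 ratios to the U95 vehicle array used 13.874 as the added value. Over 5141 genes the 5th and 95th percentiles of the 72 h ratio were -0.862 and 0.676. CHRDL1 had signals of 200.4, 267, 581 and 893 in vehicle and at 8, 24 and 72 h, ratios of 0.39, 1.47 and 2.08. LTBP1 had 837, 533, 231 and 160.1, ratios of -0.64, -1.80 and -2.29. Both genes kept the same order of conditions as on U133A.

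FST, INHBB and TGFBR2 also lay on the same side of vehicle at 24 and 72 h as on U133A. FST had 746, 708, 879 and 1404 in vehicle and at 8, 24 and 72 h, a 72 h ratio of 0.90. INHBB had 2420.1, 2979.6, 4151 and 4778, a 72 h ratio of 0.98, with 72 h above 24 h. The 2 TGFBR2 probe sets had 72 h ratios of -0.60 and -0.58, both between the 5th and 95th percentiles of all genes at 72 h (-0.862 and 0.676). At 24 h these percentiles were -0.741 and 0.597. FST (0.23) and both TGFBR2 probe sets (-0.44 and -0.72) lay between them at 24 h, and INHBB (0.77) lay above.

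The TGFB1 ratios at 72 h were smaller on U95 than the U133A difference. Its U95 probe set of highest signal had 265, 318, 246 and 276 in vehicle and at 8, 24 and 72 h, a 72 h ratio of 0.05, and a second had 0.36. TGFB2 had 72 h ratios of -0.80 and -0.33, SMAD7 had -0.47, and the 4 SMAD3 probe sets ran from -1.0 to 0.12. INHBA again lay low, at 92.5 in vehicle and 51.2 at 72 h on its brighter probe set.

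**Figure D3:**
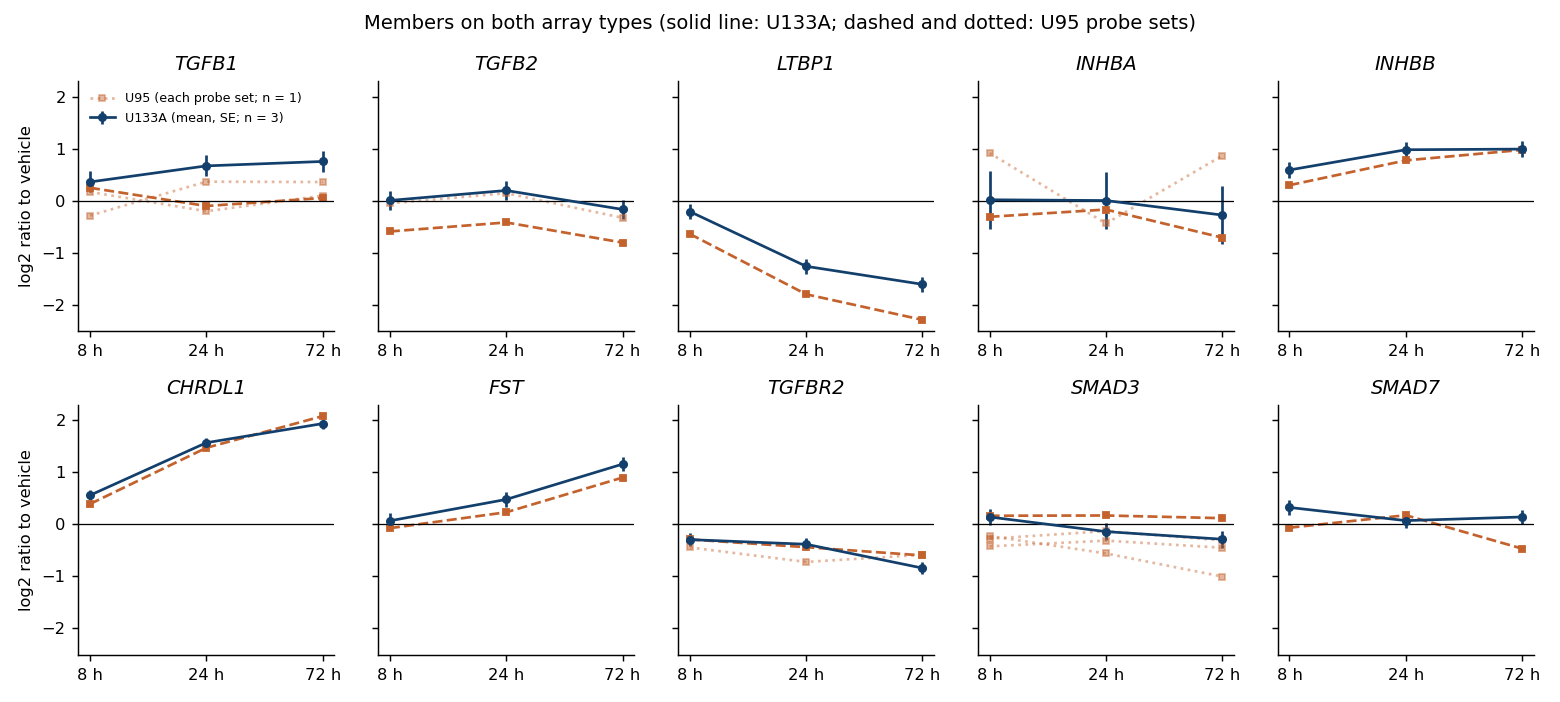
Log2 ratio to vehicle (vertical axis) at 8, 24 and 72 h for the 10 genes, with U133A means and SE (solid, n = 3) and each U95 probe set (dashed for the one of highest signal, dotted for others, n = 1). CHRDL1, LTBP1, FST, INHBB and TGFBR2 lie on the same side of 0 at 24 and 72 h on both array types, whereas TGFB1 at 72 h is 0.75 on U133A and 0.05 on U95.

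The rest of the pathway was read from lists of 111 genes by role, of which 98 were measured and 65 lay above the filter. At 8 h 1 of the 65 rose and 0 fell, at 24 h 3 rose and 0 fell, and at 72 h 8 rose and 2 fell, where 0.766%, 4.07% and 6.84% of all genes were called. With the replicate number as a block the split was 2 higher and 1 lower at 8 h, 4 and 3 at 24 h, and 8 and 5 at 72 h. Quantile normalization gave 3 higher and 1 lower at 24 h, and without 72 h replicate 3 there were 5 higher and 4 lower at 72 h. The shares of all genes above are from the fit without a block, and none is given for these alternatives. At an unadjusted p under 0.05 the counts were 8, 15 and 21 of 65, and over all genes the shares were 6.38%, 14.4% and 20.1%. The median log2 difference at 72 h was -0.002 over the 65 and -0.015 over all genes tested. Adjusted p-values below are from limma over 7178 genes. The lists were drawn up by role, but with earlier results of these data known.

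Of the 9 other extracellular antagonists tested, GREM1 rose at 72 h and the remaining 8 did not pass. GREM1, gremlin 1, is a secreted inhibitor of BMPs, and its signal averaged 423 ± 93.7 at 72 h and 155 ± 52.4 in vehicle (SD, n = 3 each), a log2 difference of 1.38 (SE 0.24, adjusted p = 0.0019). The list's median log2 difference was -0.207. FSTL3, a follistatin relative, differed by 0.25 (adjusted p = 0.404), and TWSG1, which acts with chordin on BMPs, by -0.21 (adjusted p = 0.613).

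Of the 6 other ligands tested, BMP7 fell at 72 h and 5 did not pass. BMP7, a ligand bound by several of these antagonists, averaged 1306 ± 148 at 72 h and 2091 ± 164 in vehicle (SD, n = 3 each), a log2 difference of -0.68 (SE 0.13, adjusted p = 0.0051). None of the 8 other receptors and none of the 11 genes of TGF-beta latency and activation, THBS1 and the integrin genes among them, passed at any time against vehicle. THBS1 was lower at each time, by log2 differences of -0.44, -0.46 and -0.49 at 8, 24 and 72 h (limma adjusted p = 0.342, 0.11 and 0.0595). At an unadjusted p under 0.05 the counts at 8, 24 and 72 h were 0, 1 and 1 for the receptors and 1, 1 and 2 for the latency genes. TGFBR1, the receptor that pairs with TGFBR2, differed by -0.18 at 72 h (adjusted p = 0.663), and LTBP2, LTBP3 and LTBP4, the relatives of LTBP1, differed by 0.22, -0.14 and 0.35 (adjusted p = 0.445, 0.769 and 0.633).

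Of the 17 SMADs and regulators tested, TGIF1 and TGIF2 rose and SMURF2 fell at 72 h. TGIF2, which represses SMAD-driven transcription, averaged 1213 ± 134 at 72 h and 770.2 ± 88.7 in vehicle (SD, n = 3 each), a log2 difference of 0.65 (SE 0.11, adjusted p = 0.0017), and had risen by 0.67 at 24 h (adjusted p = 0.0019). SMURF2, a ubiquitin ligase that works with SMAD7 on the receptors, differed by -0.52 (SE 0.12, adjusted p = 0.015). TGIF1 differed by 0.41 (SE 0.10, adjusted p = 0.024), a call lost without vehicle replicate 2 or 3, without 72 h replicate 1 or 3 and with median centring, and the SMURF2 call was lost without vehicle replicate 1 or 3.

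Of the 14 target genes of TGF-beta and BMP signalling tested, 5 rose and 0 fell at 72 h, where 6.84% of all genes were called. Only 8 of the 14 differences were positive, and the list's median log2 difference was 0.060. The filter left out the rest of the 22 measured, and these were not tested. Among them PMEPA1 averaged 61.1 ± 20.3 in vehicle, 378 ± 218 at 24 h and 249 ± 22.4 at 72 h (SD, n = 3 each). TAGLN averaged 98.6 ± 36.7 in vehicle and 203 ± 40.3 at 72 h. ZEB1 alone of those left out had a lower mean at 72 h than in vehicle, 45.7 against 49.9. ID3, a BMP-responsive inhibitor of differentiation, averaged 2357 ± 555 at 72 h and 1046 ± 279 in vehicle (SD, n = 3 each), a log2 difference of 1.17 (SE 0.18, adjusted p = 7.21e-04), kept in all 19 alternatives. It had risen by 0.74 at 24 h (adjusted p = 0.031), a call lost in 6 of 19 alternatives, among them without either of vehicle replicates 1 and 3 or 24 h replicates 1 and 2. JUNB, an AP-1 transcription factor, was past the test at each time, by 0.71 at 8 h, 0.51 at 24 h and 0.69 at 72 h (SE 0.13, adjusted p = 0.013, 0.043 and 0.0038). The JUNB call at 8 h was lost when any of vehicle replicates 1 and 3 and 8 h replicates 1 and 2 was left out, and that at 24 h was lost in 10 of 19 alternatives, whereas the 72 h call was kept in all 19.

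FN1, fibronectin, differed by 2.11 (SE 0.49, adjusted p = 0.015) with a wide spread, at 2595 ± 1492 at 72 h and 592 ± 382 in vehicle (SD, n = 3 each), and its call was lost when vehicle replicate 2, vehicle replicate 3 or 72 h replicate 1 was left out. KLF10, a TGF-beta-induced transcription factor, differed by 0.39 (SE 0.098, adjusted p = 0.023), a call lost when any of vehicle replicates 2 and 3 and 72 h replicates 2 and 3 was left out. ID1, named here after its value was seen, differed by 0.37 (adjusted p = 0.0496), a call lost in 14 of 19 alternatives. At 72 h against 8 h, GREM1 rose by 1.25 (adjusted p = 0.00989), CCN2, a matrix signalling gene, by 1.34 (adjusted p = 0.031), ID3 by 0.75 (adjusted p = 0.0398) and FN1 by 2.18 (adjusted p = 0.0256). Of 19 alternatives, the GREM1 call was lost in 1, without 8 h replicate 3, that of FN1 in 5, of CCN2 in 6 and of ID3 in 8, each of these 3 among others without 8 h replicate 2 or 3 and without 72 h replicate 1 or 3. CCN2 differed from vehicle by -1.23 at 8 h and by 0.11 at 72 h, neither past the test (adjusted p = 0.104 and 0.903). Its signal averaged 658 ± 62.9 in vehicle, 272 ± 36.0 at 8 h and 751 ± 325 at 72 h (SD, n = 3 each).

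**Figure D4:**
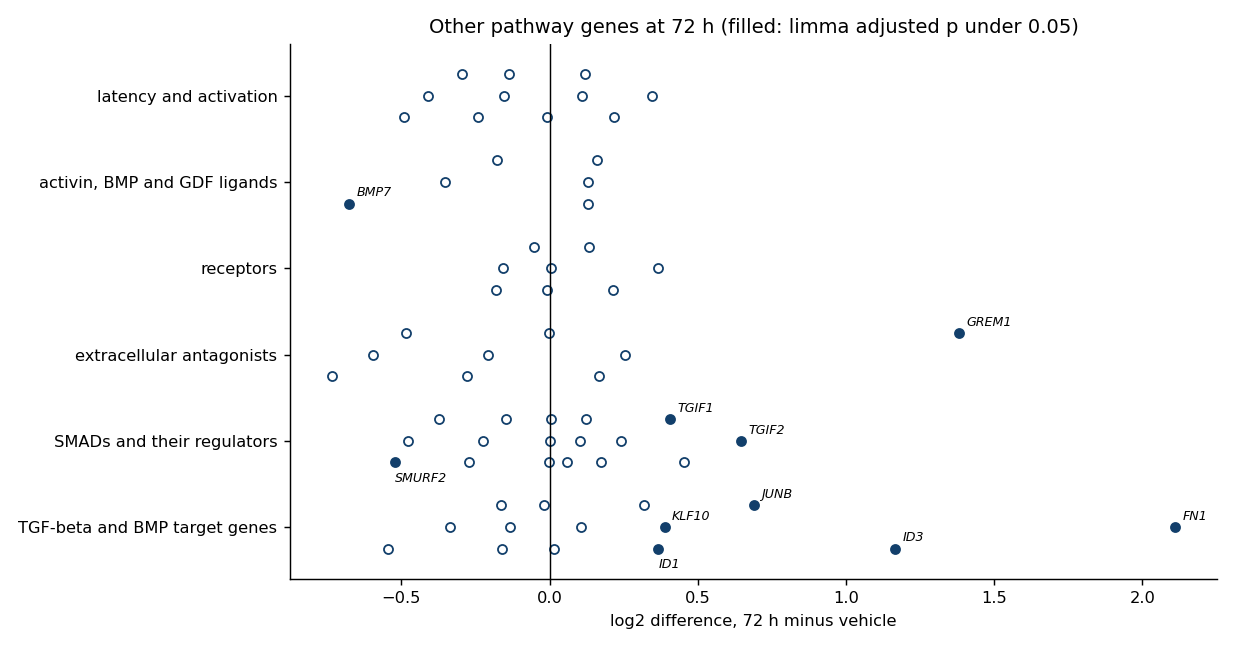
Log2 difference, 72 h minus vehicle (horizontal axis), for the 65 other pathway genes tested, in rows by role, with filled points for limma adjusted p under 0.05. GREM1 at 1.38, ID3 at 1.17 and FN1 at 2.11 lie to the right, BMP7 at -0.68 and SMURF2 at -0.52 to the left, and the receptor and latency rows hold no filled point.

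As a description, the genes whose log2 signals ran most like each called member over the 12 U133A arrays were ranked by Pearson correlation among 7178 genes. The arrays fall into 4 groups that share the treatment. For CHRDL1 they were ABLIM1 (0.991), COL4A2 (0.978) and SLC6A12 (0.976), which differed from vehicle at 72 h by 1.63, 1.51 and 0.88. For LTBP1 they were KRT23 (0.965), CRYAB (0.961) and CTSB (0.955), which differed by -2.02, -0.99 and -0.49. For FST they were CLDN10 (0.970), MYOF (0.957) and VGLL4 (0.956), and for INHBB LBH (0.947), MCUR1 (0.943) and LIMK2 (0.941). For TGFBR2 they were TLK1 (0.959), ARHGAP29 (0.958) and EHF (0.950), and for TGFB1 NIBAN1 (0.925), DUS1L (0.924) and GCLC (0.922).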

How the data were processed

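Messenger RNA of OVCAR3 cells was measured on 12 U133A and 4 U95 Affymetrix arrays. Each deposited value is a linear intensity for 1 probe set, which the submitters' processing notes credit to MAS5. The 2% trimmed mean was 500.2 on all 16 arrays, so the values were used as deposited, and 0 columns were left unmatched. No detection calls were used.

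Probe sets were tied to genes by the platform annotation. The U133A type had 22283 probe sets, 19071 of them tied to a single gene and 1043 to more than 1, with 2169 unlisted. Values were transformed as log2(value + 15.833), the 10th percentile of all U133A values (13.874 for U95), which understates differences of low signals. The probe set of highest mean stood for a gene, and genes under the 40th percentile of the mean over the 12 arrays were left out, which left 7178. A probe set whose name ends in _s_at or _x_at can match several transcripts.

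In R 4.3.3 with limma 3.58.1 (eBayes with trend), 1 term per group was fitted to the 12 arrays with 8 residual degrees of freedom, and p-values were adjusted by Benjamini-Hochberg over 7178 genes with a threshold of 0.05. The fit was tested on simulated data. Alternatives were another pseudocount, no filter, quantile normalization, median centring, averaging all probe sets of a gene, a replicate block and each array left out. Fitting each other probe set alone was chosen after seeing the data. The number of arrays limits the precision. No label states that the replicate numbers pair arrays of different groups. After subtraction of group means, the correlation between arrays with the same number was positive for every pair. It lay above 0.1 in 3 of 3 pairs for 24 h against 8 h (0.108 to 0.157) and 72 h against 24 h (0.103 to 0.187). Elsewhere 1 or 2 pairs did. The highest values were 0.263 for 72 h against 8 h and 0.216 for 72 h against vehicle, and the lowest was 0.052. The fit without a block was kept, and where the block changed a count of called genes, both counts are given.

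The members, gene lists and tests were chosen with earlier results of these data known. Named were all 10 members, up to 4 called genes of each pathway list with the lowest adjusted p, and the 3 genes most correlated with each called member. TGFBR1, LTBP2, LTBP3, LTBP4, FSTL3, TWSG1, THBS1, CCN2 at 8 and 72 h against vehicle, and ID1 were named outside this rule, after their values were seen. PMEPA1, TAGLN and ZEB1, left out by the filter, were also named after their values were seen. Promoter windows and gene positions are RefSeq's on GRCh38.p14, with motifs counted on both strands of 250 bases.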

Additional observations from a re-analysis of the deposited data

Results flagged for a closer look

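For 4 members, times of exposure differed from each other in limma with Benjamini-Hochberg adjustment over 7178 genes. The members were chosen with these arrays known, so these differences are not independent of that choice and the calls are a description. LTBP1 was lower at 24 h than at 8 h by a log2 difference of -1.05 and lower at 72 h than at 8 h by -1.40. TGFBR2 differed by -0.55 between 72 h and 8 h, a call lost when 8 h replicate 2 or 3 or 72 h replicate 1 or 3 was left out and with all its probe sets averaged (adjusted p up to 0.103). FST was 1.09 higher at 72 h than at 8 h. CHRDL1 was 1.01 higher at 24 h and 1.38 higher at 72 h than at 8 h. In each of these the 3 arrays of the later time lay beyond the 3 arrays at 8 h. The share of all genes for which this held was not counted. Groups of 3 arrays are too small for a search for single outlying arrays.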

How the results depend on the processing

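Of the counts of called genes, those of the 10 members at 72 h against vehicle (6), 24 h against 8 h (2) and 72 h against 8 h (4) stayed within 1.5 times under every alternative run, and no value turned its sign against a call. The members were chosen with these same arrays known, so steady counts are a description and lend the calls no support. The replicate block gave 5 members in place of 3 at 24 h, adding TGFB1 and FST, and 1 in place of 0 for 72 h against 24 h. For other pathway genes the block gave 3 in place of 1 at 8 h, 7 in place of 3 at 24 h and 13 in place of 10 at 72 h, of which 1, 3 and 5 were lower where the fit without it had 0, 0 and 2. The share of all genes called with the block is not given, so nothing is read from the larger counts. With single arrays left out, the members called ranged from 0 to 2 at 8 h, 3 to 5 at 24 h, 5 to 6 at 72 h, 2 to 2 for 24 h against 8 h, 0 to 0 for 72 h against 24 h and 3 to 4 for 72 h against 8 h. Other pathway genes ranged from 0 to 2 at 8 h, 1 to 4 at 24 h and 5 to 10 at 72 h. Without vehicle replicate 2 or 8 h replicate 2 no member was called at 8 h, and without 72 h replicate 1 INHBB was added there. Without 24 h replicate 2, TGFB1 and TGFBR2 were added at 24 h, and FST was added there without 72 h replicate 1. Pathway counts were 5 at 72 h without vehicle replicate 3, and 1 at 24 h without vehicle replicate 1 or 3 or 24 h replicate 1. The cause was not tested. Of 1026 log2 differences of members recomputed under the planned settings, 1018 moved by less than 1 SD between replicates and 8 by more. The SD used was the largest of the 4 groups. Many of these differences could not move, since the replicate block, the lack of a filter and leaving out an array of another group keep the estimate as it is. The other probe sets of a member moved 31 of 66, LTBP1 at 72 h reaching -2.42. For signals near background, such as INHBA, no order of groups can be measured.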
